A study of Mus musculus with 4 samples.

Results

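The collagen genes were examined in messenger RNA from cells of the mouse submandibular gland that had been sorted for an Fgf10 reporter, in adults and in pups. The members were all protein-coding genes whose mouse symbol reads Col, a number, a and a number, which gave 44 of the 53465 genes in the count files. By the structure of the proteins, 11 were fibrillar collagens, 6 were type IV chains of the basement membrane, and 9 were FACIT collagens, which have interrupted triple helices and decorate fibrils. A further 6 were type VI chains that form beaded filaments and 4 were transmembrane collagens. The remaining 8 were 2 multiplexins (Col15a1 and Col18a1), 3 short-chain collagens (Col8a1, Col8a2 and Col10a1), the anchoring-fibril collagen Col7a1, and Col26a1 and Col28a1.

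Collagens are secreted or membrane-bound proteins in which 3 chains wind into a triple helix. Fibrillar collagens, made mainly by fibroblasts, bear the tension in connective tissue, type IV collagen forms the sheet on which epithelia and blood vessels rest, and type VI collagen links cells to the surrounding fibrils. In a salivary gland the stroma, the vessels and the epithelium each contribute to this matrix, which is laid down as the gland branches and grows.

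All mice were C57BL/6J with the genotype Fgf10CreERT2:Rosa26Tomato fl/fl, in which Fgf10 drives a tamoxifen-dependent Cre that turns on the Tomato reporter. Adults received tamoxifen (0.1 mg per g of body weight) at postnatal days 57 and 58 and were taken at day 60. Pups received the same dose at days 4 and 5 and were taken at day 7. Each age has 2 libraries, so cells are defined by Fgf10 expression around the time of tamoxifen, in pups and adults alike, and no group lacks the reporter or the drug. How many animals a library holds, and whether replicates are different animals, is not in the labels. The p-values therefore reflect the spread between these 4 libraries, which may be technical.

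Gene counts ranged from 7289792 to 21490686 per library. Pup replicate 1 stood apart: 76.7% of its tallied reads were assigned to no gene feature, against 9.70% to 10.6% in the other 3 libraries. It had a count for 96.8% of 1086 olfactory receptor genes, which these cells are not known to use. The count that this background would give over each gene's exons was computed from those genes, and it is given below beside some genes with few counts. Fgf10 itself stood at 195 and 40.3 CPM in adult replicates 1 and 2 and 27.3 and 24.1 CPM in pup replicates 1 and 2, where CPM are counts scaled to a common depth with edgeR's TMM factors. Values for single libraries follow this order throughout. The sorted cells were a mixture by their markers. Markers of epithelium summed to 9811 and 13724 CPM in adult libraries, against 1828 and 4331 CPM in pup ones, markers of fibroblasts to 916, 3368, 4659 and 9565 CPM, and markers of ionocytes, an epithelial cell type, to 2997, 1682, 33.2 and 35.2 CPM.

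Collagens took up a far smaller part of the RNA in adult replicate 1 than in any other library. They made up 0.149% of gene counts in adult replicate 1 (Wilson 95% interval 0.147% to 0.151%) and 2.03% in adult replicate 2 (2.02% to 2.03%). In pup replicates 1 and 2 they made up 3.94% (3.93% to 3.95%) and 6.33% (6.32% to 6.34%). Both adults therefore lay below both pups, with means of 1.09% ± 1.33 (SD, n = 2) and 5.13% ± 1.69 (SD, n = 2). An exact two-sided permutation test gave p = 0.333, the smallest value that 2 against 2 libraries allow. These intervals cover counting error only, since PCR copies are not independent molecules.

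The collagen share followed the same order of libraries as the summed fibroblast markers. Dcn alone gave 842, 2196, 3290 and 6214 CPM of these sums. All 8 fibroblast markers were found in the files, and 6 of them were lower in both adults than in both pups (27.1% of all genes). Among the 6 were Pdgfra (19.4, 210, 387 and 508 CPM) and Prrx1 (5.52, 24.4, 74.8 and 130 CPM). For Pdgfrb (26.1, 190, 140 and 263 CPM) and Twist2 (0, 2.66, 2.27 and 4.15 CPM), adult replicate 2 exceeded pup replicate 1. In bulk samples, fewer fibroblasts and less collagen RNA per fibroblast cannot be told apart. The part of the fibroblast content in the differences below was not tested. Endothelial markers summed to 788 CPM in adult replicate 2, and to 0.0766 CPM in adult replicate 1, where Cdh5, Kdr, Tek, Emcn and Cldn5 were at 0. They came to 112 CPM in pup replicate 1 and 6.25 CPM in pup replicate 2.

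**Figure D1:**
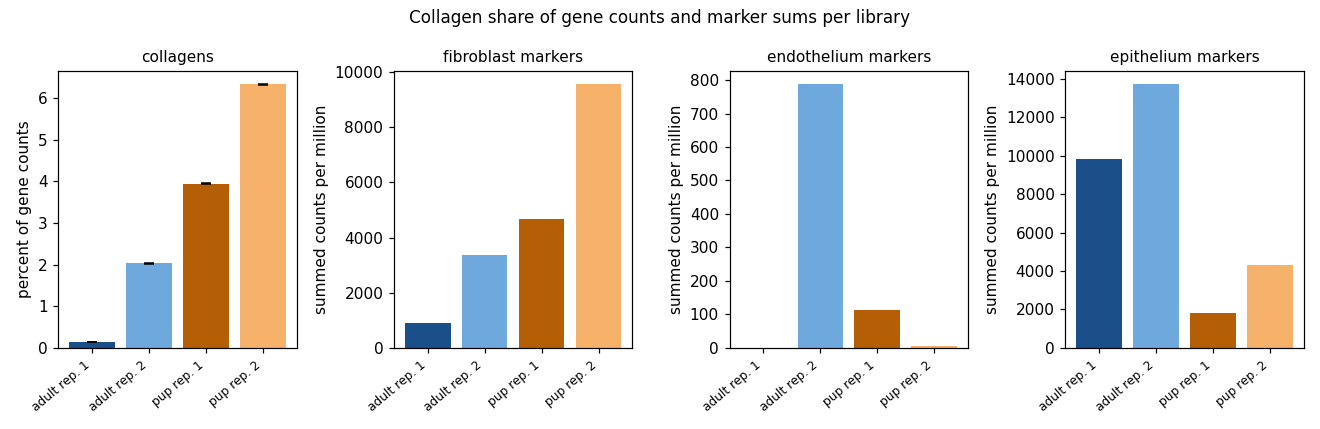
Bars give, for each of the 4 libraries, the percentage of gene counts on collagens (error bars: Wilson 95% intervals) and the summed TMM-scaled CPM of the markers of fibroblasts, endothelium and epithelium. Collagens range from 0.149% in adult replicate 1 to 6.33% in pup replicate 2 in the same order as the fibroblast markers, while endothelial markers are highest in adult replicate 2.

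The makeup of the collagen RNA set adult replicate 1 apart as well. Fibrillar chains made up 14.7% of its collagen counts, against 80.5%, 72.9% and 73.8% in adult replicate 2 and pup replicates 1 and 2. Type IV chains made up 41.3% of the collagen counts in adult replicate 1, 5.78% in adult replicate 2 and 12.3% in pup replicate 1. Pup replicate 2 lay just below pup replicate 1. The multiplexins took 23.3% there and 1.04% to 1.19% elsewhere, and the transmembrane collagens 6.70% there and 0.273% to 0.916% elsewhere. In each of these shares adult replicate 2 was nearer to the pups than to adult replicate 1, but it did not match the pups. Its type IV and transmembrane shares lay below those of both pups, and its fibrillar share lay above. The shares of the fibrillar, type IV, beaded and FACIT classes overlapped between the ages. The exact two-sided permutation p was 1 for the fibrillar, type IV and FACIT shares and 0.667 for the beaded share.

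**Figure D2:**
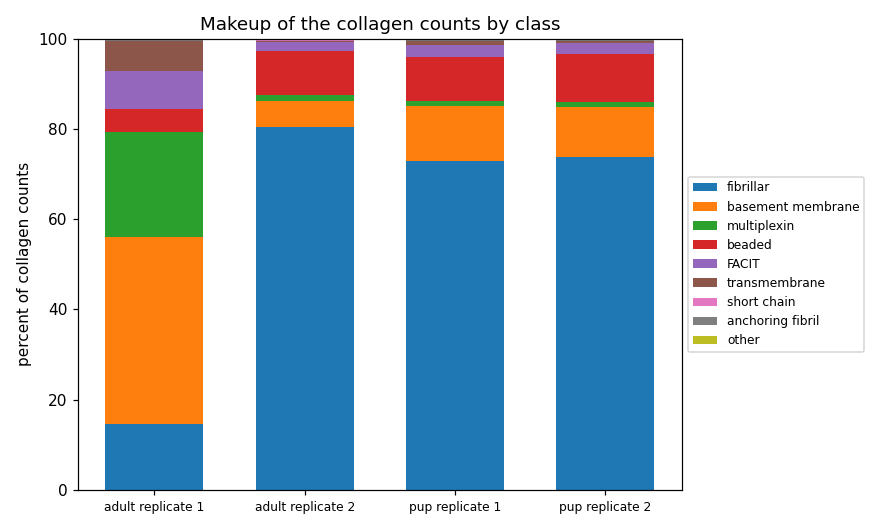
Stacked bars give the percentage of each library's collagen counts that fell on each structural class. Fibrillar chains fill 72.9% to 80.5% of the bar in 3 libraries and 14.7% in adult replicate 1, where type IV chains take 41.3% and the multiplexins 23.3%.

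Ordered by CPM per kb of exon, a scale on which genes can be compared, Col3a1, Col1a1 and Col1a2 were the 3 highest members in adult replicate 2 and both pups. In adult replicate 1 Col18a1 came first with 51.1 CPM per kb, next to Col4a1 with 49.1, then Col4a2 with 25.2 and Col17a1 with 17.4 CPM per kb, and Col3a1 was at rank 7 with 10.7 CPM per kb. Taking the longest coding transcript as the length kept Col18a1, Col4a1 and Col4a2 in the first 3 places there and moved Col3a1 to rank 4.

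**Figure D3:**
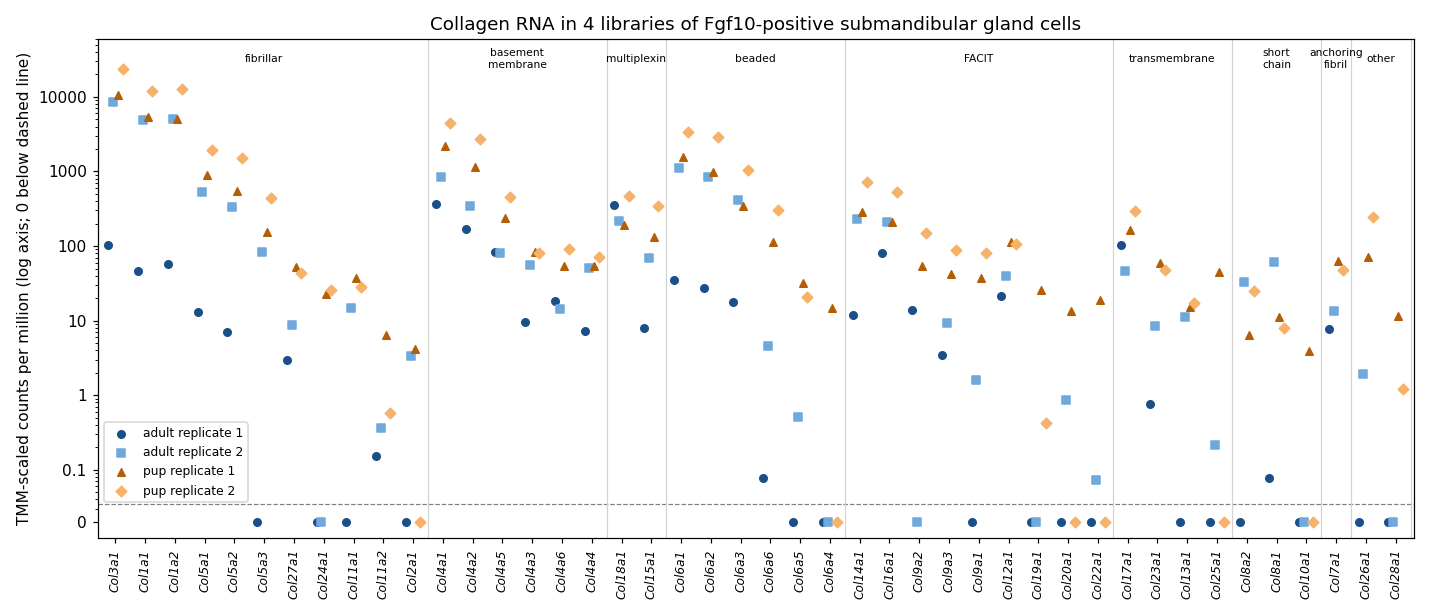
Each point is the level of a collagen gene in a library, in TMM-scaled CPM on a log axis, for all 44 members grouped by class and ordered by mean level per kb within a class. Adult replicate 1 lies far below adult replicate 2 for the main fibrillar and beaded chains, such as Col1a1 at 46.3 against 4899.8 CPM, but near it for Col4a5, Col4a6 and Col18a1.

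The comparison of the ages asks how the collagen program of Fgf10-positive cells differs between a gland that is still growing and an adult one. Of the 44 members, 38 passed edgeR's filter on low counts. No member passed the test: edgeR's quasi-likelihood test called 0 higher and 0 lower in adult at an adjusted p under 0.05 over 16320 genes (0% of all genes in either direction). The smallest adjusted p of a member was 0.164. At an unadjusted p under 0.05 edgeR had 15 members lower and 0 higher in adult, 39.5% of those tested, where 8.49% of all genes were lower and 5.99% higher by that rule. The number of members rose when adult replicate 2 was left out and fell when pup replicate 2 was left out. The share of all genes by that rule was not computed for those fits. DESeq2 called 15 members lower and 0 higher at an adjusted p under 0.05 (background 5.28% lower and 3.74% higher), and 20 lower and 0 higher at an unadjusted p under 0.05 (11.6% and 7.48%). limma-voom called 0 of all genes after adjustment, and had 19 members lower and 0 higher at an unadjusted p under 0.05 (6.13% and 7.48%).

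In 31 of the 38 tested members, 81.6%, both adult libraries lay below both pups, where 27.1% of all genes did so. No member had both adults above both pups, against 21.8% of all genes. Over all 44 members, filtered or not, 33 had both adults below both pups. With the background of pup replicate 1 subtracted, 33 of the 38 tested members did so. The share of all genes was not computed for the unfiltered or the subtracted counts. Over the tested members the median log2 fold change, adult over pup, was -2.16, and over all genes it was -0.24. With library totals in place of TMM the median of all genes was -0.62, and that of the collagens -2.55. A negative sign was found for 36 of the 38, against 57.1% of all genes. The spread within the adults was wide: adult replicate 1 was below adult replicate 2 for 31 members (52.4% of all genes). Adult replicate 1 alone lay below both pups for 35 members (41.2%) and adult replicate 2 alone for 31 (34%). Without adult replicate 2 the median was -6.13 and edgeR called 15 members lower (4.49% of all genes), and without adult replicate 1 it was -1.73 with 6 called lower (0.987% of all genes). Leaving out either pup library gave 0 calls. With no filter beyond 1 count, edgeR called 8 members lower (0.508% of all genes).

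**Figure D4:**
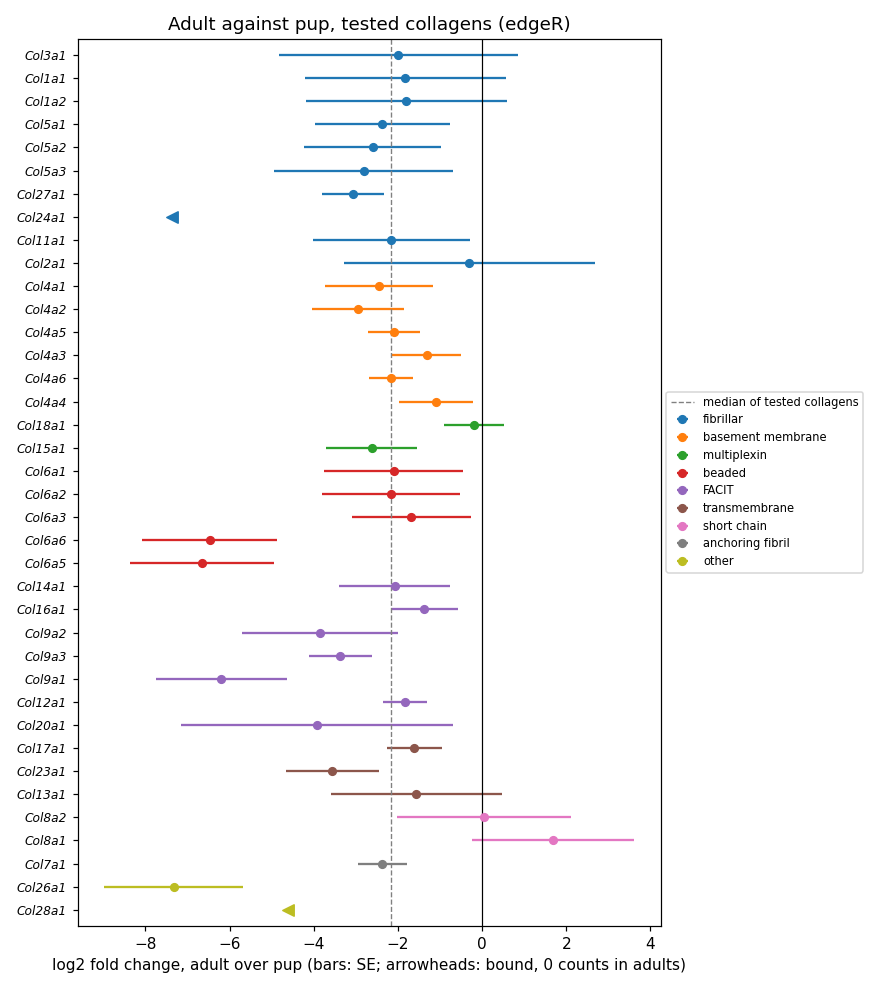
Points give the log2 fold change of adult over pup from edgeR for the 38 tested collagens, with bars of 1 SE and with arrowheads for 2 genes that had 0 counts in both adults and are drawn at a bound. All but Col8a1 and Col8a2 lie left of 0 (Col8a2 too with any other scaling), and the dashed line marks the median of -2.16.

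Of the fibrillar collagens 10 were tested, with a median log2 fold change of -2.26. Both adults were below both pups for 8 (27.1% of all genes). The most abundant chains were lower in the adults by mean but with a spread that exceeded the difference. Col3a1 (ENSMUSG00000026043, chromosome 1, 45311538 to 45349706 in GRCm38), whose fibrils run through stretchable tissues, stood at 105 and 8498 CPM in adult libraries, against 10505 and 23745 CPM in pup ones. Col1a1 (ENSMUSG00000001506, chromosome 11, 94936224 to 94953042), the main chain of type I collagen, stood at 46.3, 4899.8, 5402 and 12063 CPM. Its partner Col1a2 (ENSMUSG00000029661, chromosome 6, 4504814 to 4541544) stood at 57.1, 5109, 5021 and 12938 CPM. Adult replicate 2 thus lay close to the lower pup, just above it for Col1a2, and only adult replicate 1 was far from the pups. The lower pup, replicate 1, is the library with the background. With that background subtracted and the libraries rescaled, it stood at 14313 CPM for Col3a1, 7357 CPM for Col1a1 and 6826 CPM for Col1a2. The log2 fold changes were -1.99 ± 2.84, -1.82 ± 2.39 and -1.80 ± 2.39 (SE), with edgeR adjusted p of 0.824, 0.807 and 0.810.

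The type V chains, which start and limit the width of type I fibrils, were lower in both adults than in both pups. Col5a1 stood at 13.2 and 531 CPM against 884 and 1935 CPM (log2 fold change -2.37 ± 1.61, SE, edgeR adjusted p = 0.588). Col5a2 stood at 6.97, 333, 554 and 1502 CPM, and Col5a3 at 0, 84.4, 152 and 442 CPM. Of the rarer fibrillar chains, Col27a1, known from cartilage, stood at 2.99 and 8.64 CPM in adult libraries, against 52.9 and 44.0 CPM in pup ones, with a log2 fold change of -3.06 ± 0.74 (SE), an edgeR unadjusted p of 0.00554 and adjusted p of 0.240. The expected background was 37.3% of its counts in pup replicate 1.

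Col24a1, a fibrillar chain found in developing bone and eye, had the smallest p of the family. It had 0 counts in both adults, which allows up to 3 counts over both (0.111 CPM), and 208 and 490 counts in the pups. With the expected background of 107 counts removed from pup replicate 1, the adults were at least 165-fold lower. Its edgeR unadjusted p was 0.000935 with an adjusted p of 0.164, and DESeq2 gave an adjusted p of 2.69e-07. It passed the filter through its pup counts alone, so these p-values are not separate support for the difference. Col2a1 and Col11a2, both known from cartilage, had fewer counts in pup replicate 1 than background would give. Col2a1 had 0, 46, 38 and 0 counts and Col11a2 2, 5, 59 and 11 counts, while background would give pup replicate 1 130 and 96.4 counts. Col11a1 had 0, 204, 342 and 543 counts, of which background would give 179 in pup replicate 1.

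All 6 type IV chains, the network-forming collagens of basement membranes, were lower in both adults than in both pups (27.1% of all genes). Their median log2 fold change was -2.12. DESeq2 called 4 of them lower (5.28% of all genes), and edgeR 0. Col4a1 (ENSMUSG00000031502, chromosome 8, 11198423 to 11312826) stood at 366 and 855 CPM in adult libraries, against 2227 and 4436 CPM in pup ones, giving a log2 fold change of -2.45 ± 1.28 (SE, edgeR adjusted p = 0.465, DESeq2 adjusted p = 0.00109). Its partner Col4a2 (ENSMUSG00000031503, chromosome 8, 11312805 to 11449287) stood at 167, 340, 1159 and 2752 CPM (-2.95 ± 1.09, SE, edgeR unadjusted p = 0.0336, edgeR adjusted p = 0.293, DESeq2 adjusted p = 5.79e-05). For both chains the 2 adults lay closer to each other than adult replicate 1 did to either pup.

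Col4a5 and Col4a6, which pair in the basement membranes of ducts and smooth muscle, had adult libraries that matched each other. Col4a5 (ENSMUSG00000031274, chromosome X, 141475385 to 141689234) stood at 82.3 and 80.8 CPM in adult libraries, against 235 and 457 CPM in pup ones, and Col4a6 (ENSMUSG00000031273, chromosome X, 141165403 to 141474076) at 18.3, 14.3, 54.4 and 91.4 CPM. Their log2 fold changes were -2.09 ± 0.62 and -2.16 ± 0.53 (SE), with edgeR unadjusted p of 0.0143 and 0.00599, edgeR adjusted p of 0.277 and 0.241, and DESeq2 adjusted p of 0.00110 and 0.00748. Col4a3 and Col4a4, best known from the kidney filter, differed less. Col4a3 stood at 9.58, 56.5, 84.2 and 80.2 CPM (-1.31 ± 0.82, SE, edgeR adjusted p = 0.549) and Col4a4 at 7.28, 51.3, 54.8 and 71.0 CPM, with adult replicate 2 close to the pups for both. In pup replicate 1 the expected background was 18.0% of the Col4a3 counts and 29.4% of those of Col4a4.

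The 6 type IV genes lie head to head in 3 pairs, and within a pair the ratio of the chains varied less between libraries than their levels did. Col4a1 runs on the minus strand from chr8:11312826 and Col4a2 on the plus strand from chr8:11312805, so that their annotated first bases overlap by 22 bases. Col4a4 and Col4a3 start 71 bases apart on chromosome 1, and Col4a6 and Col4a5 start with 1308 bases between them on the X chromosome. The log2 ratio of Col4a1 to Col4a2, in counts per kb of exon, was 0.96 and 1.16 for the adults, then 0.77 and 0.52 for the pups. That of Col4a3 to Col4a4 was 0.49, 0.23, 0.71 and 0.27, and that of Col4a5 to Col4a6 was 2.42, 2.75, 2.36 and 2.57. With the counts as given, the largest range over libraries among these pairs was 0.64 on the log2 scale. It was that of Col4a1 over Col4a2, the pair in which both adults lay above both pups. With background subtracted from pup replicate 1, Col4a3 over Col4a4 stood at 0.93 there, which widens the range of that pair.

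The bases between the start sites of Col4a4 and Col4a3 and the 250 bases before the start of Col4a6 are shown as the stretches that such pairs share or face. The 250 bases before the start of Col3a1, Col6a2 and Col9a1 are shown beside them as the most abundant fibrillar, beaded and FACIT members whose window holds no annotated exon. Sequences are RefSeq promoters of GRCm38.p6, where 35 of the 44 members matched, and are written 5′ to 3′ on the gene's strand, with the first on the plus strand. The first lies at chr1:82586850-82586920, Col4a6 at chrX:141474077-141474326 (minus strand), Col3a1 at chr1:45311288-45311537 (plus), Col6a2 at chr10:76623631-76623880 (minus) and Col9a1 at chr1:24177360-24177609 (plus). Capitals mark matches on either strand to the TATA box (TATAAA), the CCAAT box (CCAAT) or the GC box (GGGCGG).
Col4a4 to Col4a3: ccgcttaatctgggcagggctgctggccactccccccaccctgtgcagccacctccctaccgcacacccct
Col4a6: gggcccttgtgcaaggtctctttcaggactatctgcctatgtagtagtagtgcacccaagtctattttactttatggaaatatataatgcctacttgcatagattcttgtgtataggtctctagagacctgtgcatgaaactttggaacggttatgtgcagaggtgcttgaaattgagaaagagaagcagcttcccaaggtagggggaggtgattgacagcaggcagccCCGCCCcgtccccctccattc
Col3a1: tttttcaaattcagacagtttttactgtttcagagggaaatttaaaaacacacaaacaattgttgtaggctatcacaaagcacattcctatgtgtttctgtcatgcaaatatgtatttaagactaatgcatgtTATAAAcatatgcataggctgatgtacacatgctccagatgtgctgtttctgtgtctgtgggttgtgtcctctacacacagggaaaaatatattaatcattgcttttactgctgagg
Col6a2: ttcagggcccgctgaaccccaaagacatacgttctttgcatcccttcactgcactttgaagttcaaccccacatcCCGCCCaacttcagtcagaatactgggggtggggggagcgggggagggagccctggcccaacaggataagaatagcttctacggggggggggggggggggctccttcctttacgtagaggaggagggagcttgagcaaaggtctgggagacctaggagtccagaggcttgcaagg
Col9a1: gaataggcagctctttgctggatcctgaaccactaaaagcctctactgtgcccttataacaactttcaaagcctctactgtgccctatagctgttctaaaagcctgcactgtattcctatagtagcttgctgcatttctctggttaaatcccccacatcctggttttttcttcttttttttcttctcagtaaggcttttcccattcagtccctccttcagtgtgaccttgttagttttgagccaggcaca

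The stretch between Col4a4 and Col4a3 had a GC content of 69.0% and none of the 3 motifs. Col3a1 had a GC content of 35.2% and a TATA box 112 bases before its start. Col4a6 and Col6a2 each had a GC box on the opposite strand, 16 and 170 bases before the start, and the Col9a1 window had no match. Over the 38 windows of collagen genes, 57.9% held a GC box, 34.2% a CCAAT box and 13.2% a TATA box. Over all 32817 windows of the same length in the table, the shares were 32.7%, 33.8% and 12.4%. A match is only a match of letters, and none of these sequences was assayed here.

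The multiplexins, which lie in the basement membrane zone and release anti-angiogenic fragments, split. Col15a1 stood at 7.89 and 69.4 CPM in adult libraries, against 132 and 343 CPM in pup ones, giving a log2 fold change of -2.62 ± 1.08 (SE, edgeR unadjusted p = 0.0504, edgeR adjusted p = 0.347). Col18a1 (ENSMUSG00000001435, chromosome 10, 77052178 to 77166548), the source of endostatin, stood at 359, 219, 192 and 467 CPM, so the ages overlapped (-0.19 ± 0.72, SE, edgeR adjusted p = 0.943). Its sign turned to 0.13 without adult replicate 2 and to 0.59 without pup replicate 2. Col18a1 was 1 of 5 tested members higher in adult replicate 1 than in adult replicate 2.

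Of the beaded type VI chains 5 were tested, with a median log2 fold change of -2.16. Both adults were below both pups for 4 (27.1% of all genes). The 3 abundant chains were, like the main fibrillar ones, far lower in adult replicate 1 than in the other libraries. Col6a1 stood at 35.3 and 1101 CPM in adult libraries, against 1548 and 3332 CPM in pup ones, Col6a2 at 27.4, 846, 991 and 2907 CPM, and Col6a3 at 17.5, 421, 346 and 1062 CPM. The log2 fold changes were -2.10 ± 1.66, -2.16 ± 1.63 and -1.68 ± 1.41 (SE), with edgeR adjusted p of 0.655, 0.637 and 0.676. For Col6a3 the ages overlapped, because adult replicate 2 exceeded pup replicate 1. With background subtracted from pup replicate 1 and the libraries rescaled, pup replicate 1 stood at 447 CPM for Col6a3.

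The alternative type VI chains Col6a5 and Col6a6, which can take the place of Col6a3 in the molecule, had few or no counts in the adults. Col6a6 (ENSMUSG00000043719, chromosome 9, 105687809 to 105828160) had 1 and 64 counts in adult libraries, against 1044 and 5826 in pup ones, or 0.0766 and 4.61 CPM against 113 and 306 CPM. Its log2 fold change was -6.47 ± 1.61 (SE) with an edgeR unadjusted p of 0.00642, an adjusted p of 0.244 and a DESeq2 adjusted p of 2.22e-05. Col6a5, which passed the filter through its pup counts alone, had 0, 7, 300 and 392 counts (-6.66 ± 1.70, SE, edgeR adjusted p = 0.244), with 132 of the 300 expected from background. Both were also called by edgeR when adult replicate 1 was left out, with adjusted p of 0.00563 for Col6a6 and 0.0419 for Col6a5, and when adult replicate 2 was left out. Col6a4, the third of these chains, had 0, 0, 135 and 0 counts, where 120 were expected from background.

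Of the FACIT collagens 7 were tested, with a median log2 fold change of -3.37. Both adults were below both pups for 6 (27.1% of all genes). The type IX chains, known from cartilage and the eye, were low in both adults, and Col9a1 had the lowest fold change of the tested chains. Col9a1 (ENSMUSG00000026147, chromosome 1, 24177610 to 24252684) had 0 and 22 counts in adult libraries, against 340 and 1552 in pup ones, or 0 and 1.58 CPM against 36.8 and 81.5 CPM (log2 fold change -6.20 ± 1.56, SE, edgeR unadjusted p = 0.00675, edgeR adjusted p = 0.244, DESeq2 adjusted p = 0.000429). Col9a3 stood at 3.45 and 9.22 CPM against 41.8 and 89.0 CPM (-3.37 ± 0.75, SE, edgeR unadjusted p = 0.00387, edgeR adjusted p = 0.223). Col9a2 stood at 14.1, 0, 54.4 and 150 CPM (-3.86 ± 1.85, SE, edgeR adjusted p = 0.424), so that the adults differed. The 5 cartilage markers summed to 0.0766, 1.80, 103 and 116 CPM, and 2 of them were lower in both adults than in both pups (27.1% of all genes). Cnmd was at 0, 1.51, 73.3 and 103 CPM, while Acan was at 0.0766, 0, 7.25 and 0.0525 CPM and Matn1 and Matn3 were at 0 in pup replicate 2. The part of cartilage cells in these values was not tested.

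The other FACIT chains were broader. Col14a1, which binds the surface of fibrils, stood at 11.9 and 229 CPM in adult libraries, against 285 and 734 CPM in pup ones (-2.08 ± 1.32, SE, edgeR adjusted p = 0.557). Col16a1 stood at 80.7, 208, 211 and 534 CPM (-1.37 ± 0.79, SE, edgeR adjusted p = 0.514), with adult replicate 2 just below the lower pup. Col12a1, a fibril-associated chain of tendon and other loaded tissue, stood at 21.2, 40.2, 114 and 106 CPM, so that both adults were well below both pups (-1.84 ± 0.52, SE, edgeR unadjusted p = 0.0117, edgeR adjusted p = 0.267). Col20a1 had 0, 12, 124 and 0 counts. Col19a1 had 0, 0, 236 and 8 counts and Col22a1 0, 1, 177 and 0 counts, and neither passed the filter. For these 3 the expected background made up 40.9% to 72.9% of the counts in pup replicate 1.

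Of the transmembrane collagens 3 were tested, with a median log2 fold change of -1.61. Both adults were below both pups for all 3 (27.1% of all genes). Col17a1, a component of the hemidesmosomes that fix basal epithelial cells to the basement membrane, was the most abundant of them per kb. It stood at 105 and 46.5 CPM in adult libraries, against 165 and 296 CPM in pup ones (-1.61 ± 0.65, SE, edgeR unadjusted p = 0.0466, edgeR adjusted p = 0.334), and adult replicate 1 was the higher adult. Markers of basal and myoepithelial cells summed to 5127, 2180, 4894 and 14222 CPM, and their part was not tested. Col23a1 stood at 0.766, 8.35, 59.7 and 47.9 CPM (-3.56 ± 1.11, SE, edgeR unadjusted p = 0.0173, edgeR adjusted p = 0.284, DESeq2 adjusted p = 0.0182). Col13a1 stood at 0, 11.1, 15.4 and 17.4 CPM, with adult replicate 1 apart from the other 3 libraries (-1.56 ± 2.03, SE, edgeR adjusted p = 0.806). The expected background was 45.5% of its counts in pup replicate 1, so its place below the pups is uncertain. Col25a1, known from neurons, had 0, 3, 412 and 0 counts where background alone would give 182 in pup replicate 1, and did not pass the filter. Col7a1, which forms the anchoring fibrils under the basement membrane of stratified epithelia, stood at 7.82, 13.4, 62.4 and 47.3 CPM (-2.37 ± 0.58, SE, edgeR unadjusted p = 0.00575, edgeR adjusted p = 0.240). Background would give 25.0% of the Col7a1 counts in pup replicate 1.

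Col26a1 (ENSMUSG00000004415, chromosome 5, 136741759 to 136883209), a collagen first described in testis and ovary, had 0 and 27 counts in adult libraries, against 662 and 4679 in pup ones. This is 0 and 1.94 CPM against 71.6 and 246 CPM, a log2 fold change of -7.33 ± 1.65 (SE, edgeR unadjusted p = 0.00403, edgeR adjusted p = 0.227, DESeq2 adjusted p = 3.49e-06). Col28a1, found around Schwann cells, had 0, 0, 108 and 23 counts, with 68.8 of the 108 expected from background (edgeR adjusted p = 0.284). It passed the filter through its pup counts alone. The adults were at least 24.4-fold lower for it after that background was removed. Markers of Schwann cells and glia summed to 26.9, 61.2, 89.0 and 182 CPM, and their part was not tested.

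The short-chain collagens were the exception to the direction of the family. Col8a1, a chain of the membranes under endothelium, had 1 and 862 counts in adult libraries, against 104 and 154 in pup ones, or 0.0766 and 62.1 CPM against 11.3 and 8.09 CPM. Col8a2 had 0, 451, 59 and 479 counts. Background would give pup replicate 1 110 counts for Col8a1 and 62.9 for Col8a2, as many as were counted. Col8a1 was thus high in adult replicate 2 alone, the library with the 788 CPM of endothelial markers, and the part of those cells was not tested. The log2 fold changes were 1.68 ± 1.93 and 0.04 ± 2.06 (SE, edgeR adjusted p of 0.774 and 0.996), and both turned negative without adult replicate 2 (-6.82 and -10.77). The sign of Col8a2 was also negative with each of the other scalings. Col10a1, the collagen of hypertrophic cartilage, had 0, 0, 36 and 0 counts, with 43.9 expected from background.

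Ratios between chains that share a molecule or a fibril were compared over 9 pairs, the type IV pairs above included, and their spread differed by pair. The log2 ratio of Col1a1 to Col1a2 in counts per kb of exon was 0.62 and 0.86 for the adults, then 1.03 and 0.82 for the pups, a range of 0.41. That of Col3a1 to Col1a1 was 0.60, 0.21, 0.38 and 0.40, that of Col5a1 to Col5a2 was 1.09, 0.85, 0.85 and 0.54, and that of Col6a1 to Col6a2 was 1.29, 1.31, 1.57 and 1.12. The ratio of Col6a3 to Col6a1 varied more, with a range of 1.15, at -2.46 and -2.84 for the adults, then -3.61 and -3.10 for the pups, and both adults lay above both pups. The type IX pair Col9a1 over Col9a3 varied most, at -2.94 in adult replicate 2 against -0.58 and -0.52 in the pups, a range of 2.41. It has no value in adult replicate 1, where Col9a1 had 0 counts, and it rests on 22 counts of Col9a1 in adult replicate 2. Which chain of a pair stood higher depended on the length used: Col1a1 over Col1a2 averaged 0.83 with all exons together and -0.24 with the longest coding transcript. The differences between libraries do not depend on it.

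**Figure D5:**
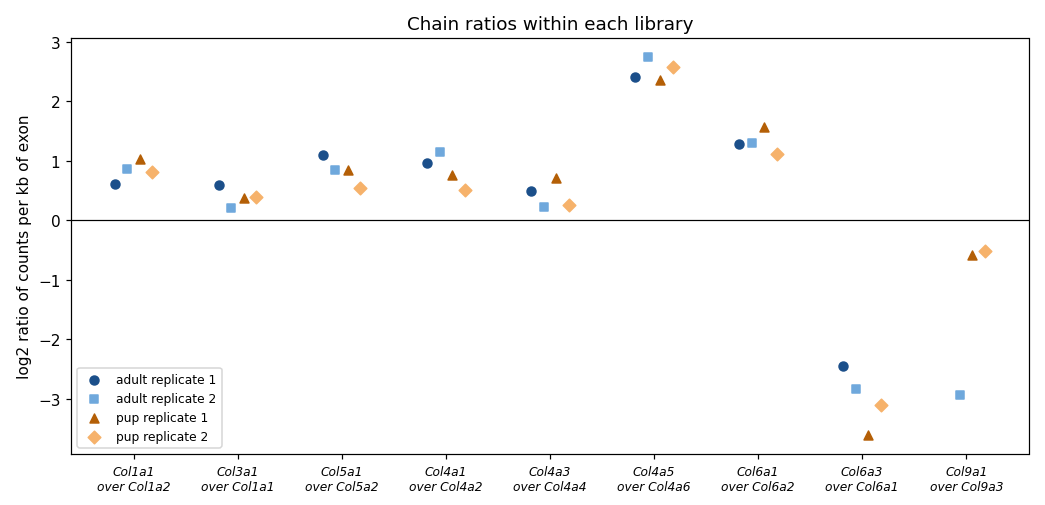
Each point is the log2 ratio of counts per kb of exon between a pair of collagen chains in a library. With no background subtracted, the 4 libraries lie within 0.64 of each other on the log2 scale for 7 of the 9 pairs. The range is 1.15 for Col6a3 over Col6a1 and 2.41 over 3 libraries for Col9a1 over Col9a3, which has no point for adult replicate 1.

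Because adult replicate 1 held so little fibrillar collagen, the members were also counted per 1000 counts of Col1a1, Col1a2 and Col3a1 in the same library, a scale chosen after the data were seen. On it 7 tested members still had both adults below both pups, where 6.71% of all genes did so: Col5a3, Col6a5, Col6a6, Col9a1, Col24a1, Col26a1 and Col28a1. Col24a1 and Col28a1 had 0 counts in both adults, so no scaling could move them out of this group. Background, not subtracted here, would give 51.4%, 63.7% and 44.0% of the pup replicate 1 counts of Col24a1, Col28a1 and Col6a5. Col26a1 stood at 0 and 0.105 for the adults, then 3.42 and 5.04 for the pups on this scale. Col6a6 stood at 0.368 and 0.249 against 5.40 and 6.28, and Col9a1 at 0 and 0.0856 against 1.76 and 1.67. Both adults were above both pups for 5 members, against 47.8% of all genes. One of the 5, Col1a2, is part of the sum that others were scaled to, so its place there restates the proportions within that sum. They included Col18a1 (1727, 11.9, 9.15 and 9.57) and Col16a1, with adult replicate 2 close to the pups.

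The genes that hydroxylate, fold, cleave, cross-link, degrade and bind collagen had mostly lower values in adults too. Of 45 listed, 42 were tested, and edgeR called 0 in either direction (0% of all genes), with a smallest adjusted p of 0.232. At an unadjusted p under 0.05 edgeR had 10 lower, 23.8% of those tested (8.49% of all genes), and 0 higher (5.99%). That count fell without adult replicate 1 or pup replicate 2, rose without adult replicate 2, and was 20 with the replicate number as a block. The share of all genes by that rule was not computed for those fits. DESeq2 called 7 lower (5.28% of all genes) and 0 higher (3.74%) at an adjusted p under 0.05. Both adults were below both pups for 23 of the 42, 54.8% (27.1% of all genes). They were above for 1 (21.8% of all genes), Mia3, a factor for exporting procollagen. The median log2 fold change was -1.71, beside -0.24 over all genes.

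Among the enzymes of hydroxylation and folding, 15 of 19 tested had a negative sign. P4hb, a subunit of prolyl 4-hydroxylase with other folding clients, stood at 784, 1293, 489 and 1339 CPM, so that the ages overlapped (0.18 ± 0.97, SE, edgeR adjusted p = 0.960). Serpinh1, the collagen-specific chaperone HSP47, stood at 107, 343, 325 and 1290 CPM (-1.85 ± 1.02, SE, edgeR adjusted p = 0.496). P3h1, a prolyl 3-hydroxylase, Plod2, which hydroxylates lysines for cross-links, and Colgalt2, which adds galactose, each had both adults below both pups, at -2.62 ± 1.03, -1.67 ± 0.54 and -3.61 ± 1.30 (SE, edgeR adjusted p of 0.323, 0.284 and 0.284).

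Of the proteases that trim procollagen, Bmp1, which removes the C-propeptide, stood at 32.7 and 75.1 CPM in adult libraries, against 215 and 260 CPM in pup ones (-2.14 ± 0.62, SE, edgeR adjusted p = 0.272, DESeq2 adjusted p = 0.00401). Its enhancer Pcolce was at -2.00 ± 1.10 and the N-proteinase Adamts14 at -3.58 ± 1.23 (SE, edgeR adjusted p of 0.490 and 0.284). Background would give 45.8% of the Adamts14 counts in pup replicate 1. Adamts2, the main N-proteinase of type I procollagen, went the other way in sign, with 41.4, 636, 101 and 341 CPM (0.62 ± 1.25, SE, edgeR adjusted p = 0.882). All 5 lysyl oxidase genes, which make the cross-links, had a negative sign. In pup replicate 1 the expected background was 25.9% of the Loxl3 counts and 69.5% of those of Loxl4. Loxl2 stood at 13.6, 23.5, 74.2 and 149 CPM (-2.59 ± 0.60, SE, edgeR unadjusted p = 0.00447, edgeR adjusted p = 0.232, DESeq2 adjusted p = 0.00147), Loxl3 was at -1.79 ± 0.70, and Lox and Loxl1 were at -1.47 ± 0.72 and -1.27 ± 1.35 (SE).

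Of the genes that degrade collagen, Mmp14, a membrane-anchored collagenase, stood at 90.4, 185, 506 and 1023 CPM (-2.47 ± 0.82, SE, edgeR adjusted p = 0.284, DESeq2 adjusted p = 0.000687). Mmp2, which it activates, stood at 17.9, 380, 791 and 1255 CPM (-2.36 ± 1.39, SE, edgeR adjusted p = 0.525). Of the receptors, the integrin chains Itga1 and Itga2, which give collagen binding, were at -1.59 ± 0.47 and -2.37 ± 0.90 (SE, edgeR adjusted p of 0.277 and 0.307). Background would give 21.2% and 59.5% of their counts in pup replicate 1. Their partner Itgb1 was at -0.49 ± 0.81 (SE, edgeR adjusted p = 0.850). Ddr1, the collagen receptor of epithelia, stood at 238, 181, 95.6 and 188 CPM, with overlapping ages (0.56 ± 0.59, SE, edgeR adjusted p = 0.750). Ddr2, the receptor of mesenchymal cells, stood at 0.460, 64.3, 77.8 and 126 CPM, with both adults below both pups.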

How the data were processed

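Per the labels' protocols, RNA of sorted cells came from a column kit, and 1 ng per library was used for SMART-Seq HT, a full-length cDNA method amplified by PCR. The authors deposited raw counts per gene for each library. The submitters' processing notes name cutadapt 1.18, STAR 2.5.2a, HTSeq 0.11.0, R 3.5.1, DESeq2 1.20.0 and GRCm38. Options, annotation release and strandedness: not given in the sources used here; without strand, overlapping genes cannot be told apart. More than 5% of the exon length is shared with another gene for 2 members, Col4a3 and Col9a3. HTSeq's tallies of unassigned reads (31.5% to 84.4% of reads) were left out. The 8 value columns of 2 series tables match no single sample and were not used.

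Of 53465 genes, 53274 matched GENCODE vM21, from which symbols, positions and exon lengths were taken. Counts were tested in R 4.3.3 with edgeR 4.0.16 (filterByExpr with minimum count 10 and total 15, TMM, quasi-likelihood F test, age as the only term, Benjamini-Hochberg adjustment over 16320 genes, common coefficient of variation 0.895). SE is the fold change divided by the root of F. DESeq2 1.42.0 and limma-voom (limma 3.58.1) were alternatives, as were 3 other scalings, 2 other filters, the replicate number as a block, each library left out on the same 16320 genes, and subtraction of the background of pup replicate 1. That background is the count per kb of exon over autosomal olfactory receptor genes times exon length, at 0.5 of the rate on X and Y. It is an average and need not hold for a single gene. On simulated counts with a common spread close to the one found here, edgeR recovered few of the changed genes. DESeq2 recovered most of them with many more false calls than edgeR. The simulation gave every gene the same spread, independent libraries and changes larger than the collagen median, so it does not measure error rates in these data. Calls by DESeq2 alone are treated as weak evidence, because edgeR and limma-voom called 0 genes after adjustment.

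Every member is named. Fold changes are given for up to 4 tested members per class of highest mean CPM per kb, and for members with an unadjusted p under 0.05 and ages that do not overlap. From the list of biosynthesis and receptor genes, the 2 highest per role and those passing the same rule are named, and Ddr2 and the single marker genes were added after their values were seen. The members and lists were chosen with earlier results of these data known.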

Additional observations from a re-analysis of the deposited data

How the results depend on the processing

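No collagen was called by edgeR with TMM, DESeq2 size factors, upper-quartile factors, library totals, the stricter filter, the background subtracted or the replicate block, nor by limma-voom. Members called lower in adult numbered 8 with no filter beyond 1 count (0.508% of all genes), 15 by DESeq2, and 0 to 15 with a library left out. For the biosynthesis and receptor list the numbers were 1, 7, and 0 to 12. The median over tested collagens stayed negative in every fit and was -6.13 to -1.72 with a library left out. In such a fit the lone library is assumed to vary like the other age. With no filter beyond 1 count, the median over all 45490 genes was -3.62, lower than the -2.07 of the 38 collagens. In the other fits the collagen median lay below that of all genes. By class, these ranges were -7.46 to -1.33 (fibrillar), -3.10 to -1.63 (type IV), -6.15 to -1.23 (beaded), -4.24 to -2.61 (FACIT) and -6.12 to -1.47 (transmembrane). The FACIT median was -2.72 with the stricter filter. By limma-voom and with the replicate block, in that order, the medians were -3.41 and -3.33 (all collagens), -4.08 and -4.07 (fibrillar), -3.50 and -3.52 (beaded) and -4.32 and -4.19 (transmembrane). With no filter beyond 1 count the beaded median was -4.24 and the transmembrane -2.45. The log2 ratio of the family's share of counts, adult over pup, was -2.24, and -5.11 to -1.34 with a library left out. Per 1000 fibrillar counts, ages did not overlap for 7 members lower (6.71% of all genes) and 5 higher in adult (47.8%).

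Col8a1, at 1.68, turned to -1.64 by limma-voom and -1.34 with the replicate block, and ranged from -6.82 to 2.63 with a library left out. Col8a2, at 0.04, turned to -0.02 with DESeq2 size factors and by DESeq2 (-0.0223 and -0.0208), to -0.0987 with upper-quartile factors, to -0.21 with library totals, to -3.73 by limma-voom and to -2.77 with the replicate block, and ranged from -10.77 to 1.35 with a library left out. Col18a1 ranged from -0.69 to 0.59. Mean chain ratios changed with the length used, by construction. Without division by length, Col1a1 over Col1a2 was -0.0896, Col3a1 over Col1a1 0.98, Col6a1 over Col6a2 0.40 and Col6a3 over Col6a1 -1.55. With the longest coding transcript, a choice made after seeing the data, Col1a1 over Col1a2 was -0.24, Col3a1 over Col1a1 1.07, Col5a1 over Col5a2 0.31 and Col6a1 over Col6a2 0.58. Other causes were not tested. Whether same-numbered libraries of the ages were prepared together cannot be read from the replicate numbers. The correlation of their deviations was -0.0982 across genes, which cannot decide it with 2 libraries per age. The replicate block changed no adjusted call but moved the collagen median from -2.16 to -3.33. Depth limits members with few counts in pup replicate 1, where background accounts for much of what was counted.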
